A study of Macaca mulatta with 6 samples.

Results

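The genes that make cholesterol and fatty acids, with the regulators that switch them on and the receptors that switch on cholesterol export, were examined in rhesus macaque blood colonies with and without a TET2 mutation. The set holds 35 genes chosen by name, with earlier results of these data known. It has 18 genes of sterol synthesis, 7 of fatty acid synthesis, 5 around the transcription factors of the SREBP family and 5 around the LXR receptors. Of these, 31 were matched by symbol to 1 row each among the 32386 rows of the count table, and all 31 passed the filter on low counts. MSMO1, ELOVL6, INSIG1 and MYLIP were not matched to a row and are not analysed here.

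The RNA came from 6 colonies of granulocytes and macrophages (CFU-GM, "CFU" in the labels), 3 labelled WT with the genotype wild type and 3 labelled TET2 UA, for uniallelic, with the genotype TET2+/- and a predicted loss of function. TET2 is an enzyme that starts the removal of methyl marks from cytosines in DNA. All 6 were grown for 14 days in MethoCult H4435 medium, a semi-solid culture, from single CD34+ blood stem and progenitor cells of bone marrow. The marrow was sampled 15 months after each animal's own mobilized CD34+ cells, treated with CRISPR/Cas9, had been given back, a model of clonal hematopoiesis. The WT colonies therefore share the transplantation of treated cells and the culture with the mutant ones, and whether they carry other edits was not examined. Each colony is the progeny of 1 cell, and its genotype was predicted from its own DNA, per the labels. The labels give neither the animals' number nor their age, and p-values measure only how far the 6 libraries scatter, which may be technical.

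Cells build cholesterol from acetyl-CoA through mevalonate, isoprenoid units, squalene and lanosterol, and they build fatty acids from the same precursor through malonyl-CoA. When sterols in the endoplasmic reticulum run low, SCAP escorts SREBP proteins to the Golgi, where proteases release a fragment that turns on the genes of both routes. When sterols are plentiful, oxysterols hold the SREBPs back and activate the LXR receptors, which turn on exporters of cholesterol such as ABCA1. Macrophages, which take up cholesterol with the debris they ingest, are known for strong use of the LXR route, and dividing cells for strong use of sterol synthesis.

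Total counts ran from 6334264 to 25485143 per library, the largest being WT replicate 1 and the smallest UA replicate 3. Values are CPM, counts scaled to a common library total with each library's TMM factor (a correction for differing RNA makeup). They hold no gene length, so levels are compared between libraries and not between genes. TET2 itself had 79.3, 92.8 and 109 CPM in the WT libraries and 238, 225 and 229 in the UA ones (log2 fold change 1.30, SE 0.16, edgeR adjusted p = 3.93e-05), so its level does not check the labels. The UA libraries were much alike. Over genes with more than 1000 counts in a pair, log2 ratios between UA libraries had an SD of 0.146 to 0.149, where sampling alone gives 0.0645 to 0.0717. WT replicates 2 and 3 gave 0.233, and WT replicate 1 gave 0.573 and 0.539 against them. Because 3 similar UA colonies cannot be told apart from 1 RNA source, a fit with the UA libraries summed to 1 sample is given beside the named genes and the list counts it changed. Over all genes that fit called 2410 lower and 3014 higher, against 4321 and 4770 with all 6 libraries apart.

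Cell markers also moved between the labels. Granulocyte and macrophage markers summed to 2970.3 to 3458.9 CPM in WT and 32225 to 33196 in UA, with 9 of 14 higher and 3 lower. The sum is carried by granule genes: MPO, LYZ and CTSG had 810.4 ± 114, 464 ± 66.4 and 219 ± 44.6 CPM in WT and 16743 ± 147, 7600.1 ± 74.6 and 3870.1 ± 165 in UA (SD, n = 3 each). The 3 lower ones, named after their values were seen, were CD14, SPI1 and FCGR1A, with log2 fold changes of -5.73, -1.48 and -0.61. CSF1R, the macrophage growth factor receptor, was not called (0.20, edgeR adjusted p = 0.448). The 9 higher ones, named likewise, also held CD68, ITGAM, CSF3R and CEBPA, at 2.77, 2.03, 4.04 and 2.29. Stromal and endothelial markers summed to 155.6 to 165 and 1227 to 1252, with 9 of 10 higher and DCN lower, and megakaryocyte markers to 423 to 471 and 742 to 760, with 4 of 8 higher and TUBB1 lower. Of lymphoid markers 4 of 5 tested were higher and 1 lower, and of erythroid ones 2 of 3 were higher and 1 lower. Those of adipocytes, a cell type rich in fatty acid synthesis, summed to 25.7 to 35.4 and 267 to 282. Only 2 of these 8 could be tested and both were higher, FABP4, which macrophages also express, with 7.25 ± 2.91 and 232 ± 7.44 CPM and LPL with 22.6 ± 7.94 and 39.7 ± 6.31 (SD, n = 3 each). The defining adipocyte genes ADIPOQ and LEP were at 0 in all WT libraries and at or under 0.43 CPM in UA. Proliferation genes summed to 3249 to 3482 in WT and 2515 to 2670 in UA, with 7 of 12 lower and MKI67 higher. Of all genes tested, 31.4% were called lower and 34.6% higher. Mitochondrially encoded genes took 0.918% to 1.35% of WT counts and 0.730% to 0.739% of UA counts. The part of these differences in the results below was not tested, and in whole colonies fewer cells of a type and less RNA per cell cannot be told apart.

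Every sterol synthesis enzyme of the set that was measured was lower in UA. All 17 were called by edgeR at an adjusted p under 0.05, each had its 3 UA values under its 3 WT values, and the median log2 fold change was -2.41, a 5.32-fold lower level. Over all 13768 genes tested the median was 0.12, with quartiles of -0.89 and 1.28. Calls were common: 31.4% of all genes were called lower, 34.6% were called higher, and for 34.0% every UA value was under every WT value. Summed over the 17 enzymes, the level was 5254, 4359.9 and 4354 CPM in WT and 677, 664 and 631 CPM in UA. As a share of all counts, these genes held 0.431% to 0.451% of each WT library and 0.0675% to 0.0706% of each UA library.

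**Figure D1:**
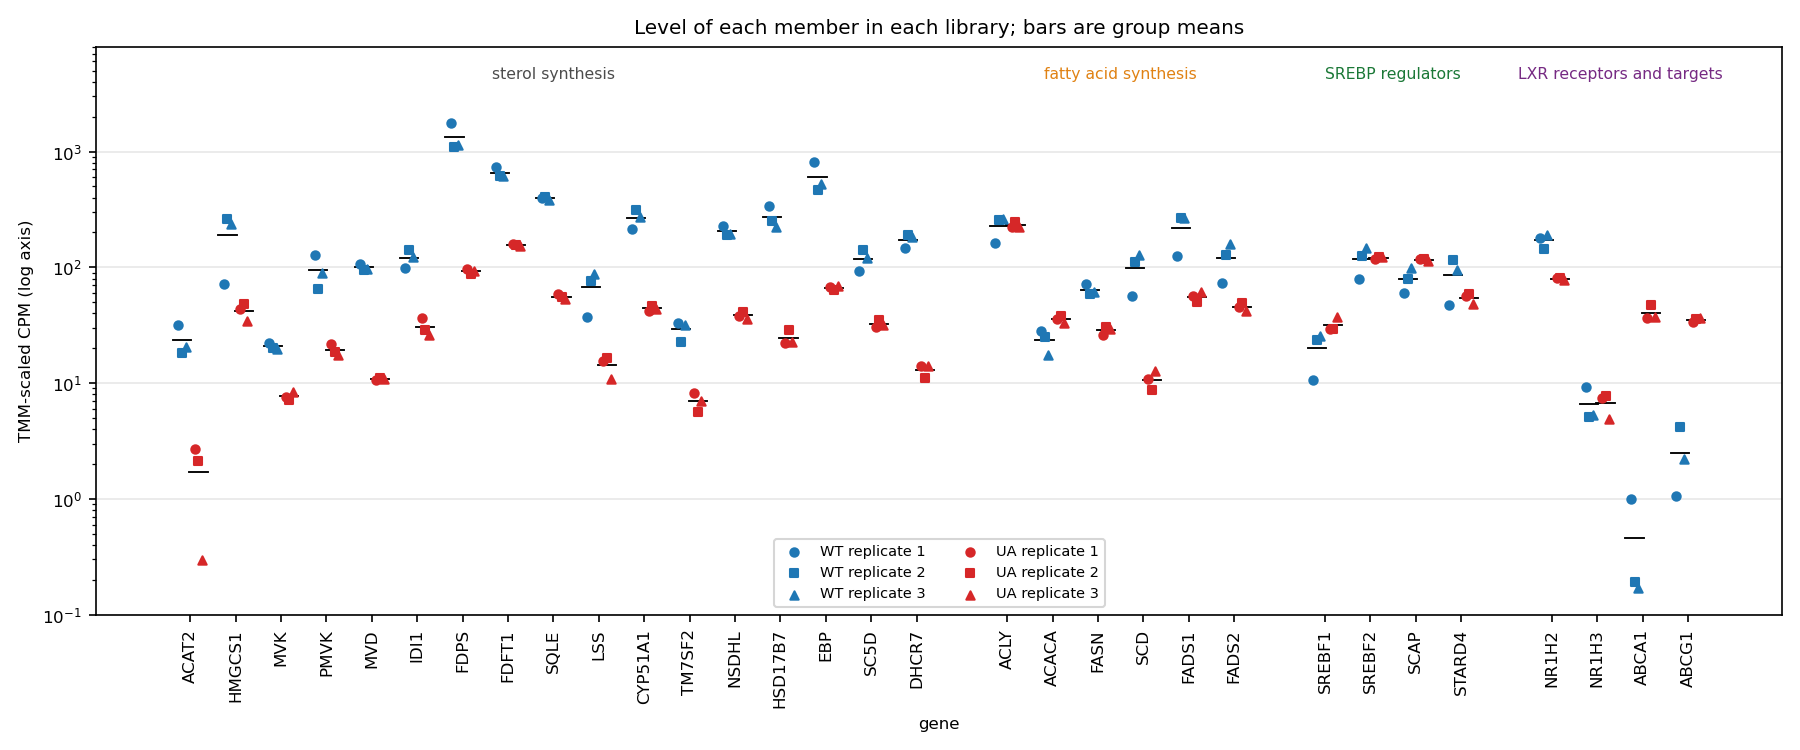
TMM-scaled CPM (log axis) of the 31 measured genes in each of the 6 libraries, grouped by role, with 1 point per library and short bars for group means. All 17 sterol synthesis genes have their UA points under their WT points, whereas the UA points of ABCA1 and ABCG1 lie far above their WT points.

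The route starts with the joining of acetyl-CoA units. ACAT2, the cytosolic thiolase of the opening step, had 32.0, 18.4 and 20.5 CPM in WT and 2.71, 2.12 and 0.295 in UA (log2 fold change -3.65, SE 0.48, edgeR adjusted p = 6.52e-05). Its UA counts were only 50, 22 and 2, and without UA replicate 3 the log2 fold change was -3.28. In human, ACAT2 overlaps TCP1 on the opposite strand, and the library kit does not mark strand, so part of its reads may belong to that neighbour. HMGCS1, which makes HMG-CoA and is a classic SREBP target, had 71.0, 259 and 236 CPM in WT and 43.7, 48.6 and 34.1 in UA (log2 fold change -2.16, SE 0.39, edgeR adjusted p = 0.000621). WT replicate 1 was the low WT library there and still lay above all 3 UA libraries.

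The enzymes that turn mevalonate into isoprenoid units fell to different depths. MVK, mevalonate kinase, showed the smallest fall of the 17, from 22.3, 20.2 and 19.7 CPM in WT to 7.59, 7.12 and 8.42 in UA (log2 fold change -1.43, SE 0.23, edgeR adjusted p = 0.000226). PMVK, the kinase that follows it, had 128, 65.6 and 88.8 CPM in WT and 21.6, 18.5 and 17.4 in UA, a 4.89-fold fall (log2 fold change -2.29, SE 0.25, edgeR adjusted p = 1.89e-05). Positions given here are those of the authors' deposited table, whose build is unnamed (the submitters' notes on processing give Mmul_8.0.1), and place PMVK on chromosome 1, bases 129613985 to 129628425. MVD, the decarboxylase that completes the isoprenoid unit, was even within each group, at 107, 95.6 and 96.9 CPM in WT and 10.7, 11.2 and 10.9 in UA, a 9.12-fold fall (log2 fold change -3.19, SE 0.18, edgeR adjusted p = 2.09e-07). IDI1, the isomerase of that unit, was 3.96-fold lower, at 98.3, 141 and 123 CPM against 36.1, 28.8 and 26.0 (log2 fold change -1.99, SE 0.20, edgeR adjusted p = 1.13e-05).

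Farnesyl diphosphate synthase, FDPS, had the largest measured fall of the 17, although DHCR7 and ACAT2 lay within 1 SE of it. Its level was 1327 ± 376 CPM in WT and 92.8 ± 4.84 in UA (SD, n = 3 each), with 1760.2, 1089 and 1131 in the single WT libraries and 97.2, 87.6 and 93.6 in the UA ones. That is a 14.3-fold fall (log2 fold change -3.84, SE 0.21, edgeR adjusted p = 2.33e-07). FDPS lies on chromosome 1 from 129998465 to 130010802 in the same table. In human, FDPS has several processed copies that can share its reads, and whether counts were split in this way was not examined here.

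Squalene is made from farnesyl diphosphate by FDFT1 and oxidized by SQLE, the gateway to ring closure. FDFT1 had 742, 614 and 617 CPM in WT and 159.9, 156 and 152 in UA, a 4.21-fold fall (log2 fold change -2.08, SE 0.14, edgeR adjusted p = 1.05e-06). SQLE was nearly level within both groups, at 396, 407 and 382 CPM in WT and 58.9, 55.5 and 53.0 in UA, a 7.08-fold fall (log2 fold change -2.82, SE 0.14, edgeR adjusted p = 1.27e-07). LSS, which closes squalene epoxide into lanosterol, had 37.0, 76.2 and 87.8 CPM in WT and 15.7, 16.5 and 10.9 in UA (log2 fold change -2.21, SE 0.32, edgeR adjusted p = 0.000118), with WT replicate 1 the lowest WT library.

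From lanosterol on, methyl groups are removed and double bonds moved. CYP51A1, the lanosterol demethylase, had 215, 311 and 273 CPM in WT and 42.1, 46.4 and 44.0 in UA (log2 fold change -2.59, SE 0.18, edgeR adjusted p = 1.02e-06). TM7SF2, a sterol reductase of the next step, was the least counted of these late enzymes, at 33.1, 22.9 and 31.5 CPM and 8.18, 5.67 and 6.94 (log2 fold change -2.06, SE 0.25, edgeR adjusted p = 4.11e-05). LBR, outside the set, has the same reductase activity and was higher in UA (log2 fold change 1.49), as given below. The demethylation at the ring's other end uses NSDHL and HSD17B7, a dehydrogenase and a ketone reductase. NSDHL had 228, 190.4 and 195 CPM in WT and 38.1, 41.4 and 35.9 in UA, a 5.32-fold fall (log2 fold change -2.41, SE 0.16, edgeR adjusted p = 7.62e-07). HSD17B7 fell 11.0-fold, from 336, 252 and 222 CPM to 22.3, 28.8 and 22.4 (log2 fold change -3.46, SE 0.21, edgeR adjusted p = 4.47e-07). These genes of the set differ in how deep they fell, yet in none did the groups overlap.

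The last enzymes of the route also fell. EBP, a sterol isomerase encoded on the X chromosome from 48741270 to 48749082, had 807, 465 and 528 CPM in WT and 67.0, 63.4 and 69.1 in UA, a 9.03-fold fall (log2 fold change -3.17, SE 0.22, edgeR adjusted p = 1e-06). SC5D, a sterol desaturase, had a smaller fall, from 93.8, 139.8 and 119.7 CPM to 30.7, 35.1 and 31.9 (log2 fold change -1.85, SE 0.19, edgeR adjusted p = 1.21e-05). DHCR7, the reductase that turns dehydrocholesterol into cholesterol, had 148, 192 and 181 CPM in WT and 14.1, 11.0 and 14.2 in UA. Its fall was 13.3-fold (log2 fold change -3.73, SE 0.20, edgeR adjusted p = 1.68e-07). DHCR7 lies on chromosome 14 from 3279526 to 3293839.

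**Figure D2:**
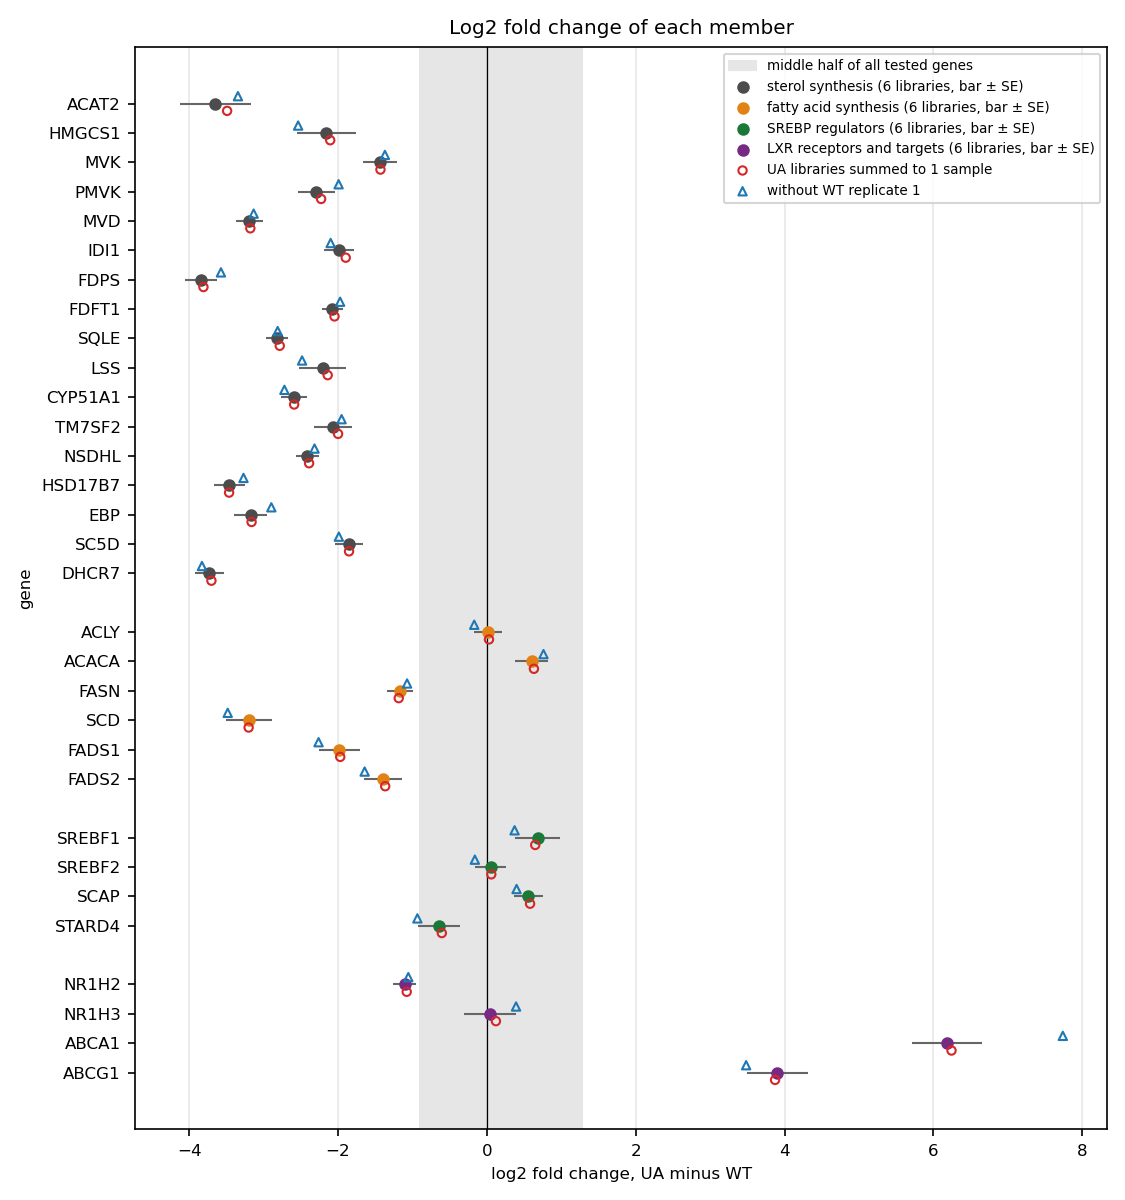
Log2 fold change of UA over WT for each measured gene, with filled points and bars of 1 SE for the fit of all 6 libraries, open circles with the UA libraries summed and open triangles without WT replicate 1. The grey band spans the quartiles of all genes tested, -0.89 to 1.28. The sterol synthesis genes run from -3.84 (FDPS) to -1.43 (MVK), and ABCA1 stands at 6.18.

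Fatty acid synthesis was mixed. Of 6 measured genes, 4 fell, 1 was called higher and 1 was not called. Over all genes, 31.4% were called lower and 34.6% higher. The median log2 fold change was -1.28 beside 0.12 for all genes. The genes that fell were those of chain building and desaturation. SCD, which puts the double bond into stearic acid, had 56.9, 110.1 and 128 CPM in WT and 10.8, 8.65 and 12.7 in UA, a 9.19-fold fall (log2 fold change -3.20, SE 0.31, edgeR adjusted p = 7.96e-06). SCD lies on chromosome 9 from 95924498 to 95943229. Its lowest WT value, in replicate 1, was well above its highest UA value.

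FASN, the multi-enzyme synthase of palmitate on chromosome 16 from 75954614 to 75973653, fell 2.25-fold, from 72.3, 58.7 and 61.7 CPM to 26.1, 30.3 and 29.4 (log2 fold change -1.17, SE 0.18, edgeR adjusted p = 0.000169). FADS1 and FADS2 encode the desaturases that make long polyunsaturated fatty acids. FADS1 had 124, 268 and 268 CPM in WT and 56.7, 49.8 and 60.8 in UA (log2 fold change -1.98, SE 0.27, edgeR adjusted p = 8.43e-05), and FADS2 had 73.0, 128 and 158 CPM and 45.4, 49.3 and 42.2 (log2 fold change -1.39, SE 0.25, edgeR adjusted p = 0.000639). In both, WT replicate 1 was the lowest WT library and stayed above UA.

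ACLY and ACACA, the genes of the set that supply and activate the precursor, were not called lower. SLC25A1, the citrate exporter outside the set, was called lower (log2 fold change -1.60), as given below. ACLY, which cuts citrate to give acetyl-CoA to both routes, overlapped between groups, at 162, 258 and 264 CPM in WT and 223, 245 and 223 in UA (log2 fold change 0.02, SE 0.19, edgeR adjusted p = 0.941). ACACA, the carboxylase that makes malonyl-CoA, had 28.1, 25.1 and 17.4 CPM in WT and 36.1, 38.2 and 32.8 in UA, and was called higher (log2 fold change 0.60, SE 0.22, edgeR adjusted p = 0.032). The groups of ACACA did not overlap, as for 39.2% of all genes in that direction, but its call was weak. With the UA libraries summed it was 0.63 with an edgeR adjusted p of 0.256. It was also lost without WT replicate 3 (0.42, edgeR adjusted p = 0.0972) and without UA replicate 1, 2 or 3 (edgeR adjusted p = 0.0911, 0.11 and 0.0586).

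The median log2 fold change of the 4 SREBP regulators measured was 0.30. None was called lower, 1 was called higher and 3 were not called, beside 31.4% lower and 34.6% higher of all genes. At an unadjusted p under 0.05, 1 was lower and 2 were higher. SREBF2, which encodes the SREBP that mainly drives sterol synthesis, had 79.5, 126 and 147 CPM in WT and 119, 123 and 122 in UA, with overlapping groups (log2 fold change 0.05, SE 0.21, edgeR adjusted p = 0.846). SREBF1, whose protein mainly drives fatty acid synthesis, had 10.6, 23.6 and 25.7 CPM in WT and 29.5, 29.1 and 37.1 in UA (log2 fold change 0.68, SE 0.31, edgeR adjusted p = 0.0709). Every UA value of SREBF1 was above every WT value, as for 39.2% of all genes, and the difference was not called. It was called without WT replicate 3 (0.90, edgeR adjusted p = 0.0422). Without WT replicate 1, its lowest WT library, the log2 fold change was smaller and not called (0.37, edgeR adjusted p = 0.0796).

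SCAP, the escort and sterol sensor, had 60.0, 79.5 and 98.1 CPM in WT and 117, 118 and 114 in UA and was called higher (log2 fold change 0.56, SE 0.19, edgeR adjusted p = 0.0227). That call was lost with the UA libraries summed (0.58, edgeR adjusted p = 0.224) and without UA replicate 1, 2 or 3 (edgeR adjusted p = 0.0687, 0.0741 and 0.0623). STARD4, which carries cholesterol through the cytosol and is itself an SREBP target, had 47.0, 115 and 94.8 CPM in WT and 56.4, 59.0 and 48.3 in UA. WT replicate 1 was the library that overlapped with UA for STARD4, and the difference was not called (log2 fold change -0.65, SE 0.28, edgeR adjusted p = 0.0627). Without that library it was called lower (-0.93, edgeR adjusted p = 3.38e-06).

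ABCA1 and ABCG1, exporters that LXR turns on, were far higher in UA, and neither LXR receptor was called higher. Of 4 measured genes, ABCA1 and ABCG1 were called higher, NR1H2 was called lower and NR1H3 was not called. Their median log2 fold change, 1.97, lay in the gap between NR1H3 (0.04) and ABCG1 (3.90) and describes no single gene. Over all genes, 31.4% were called lower and 34.6% higher. Of 12 other tested genes of LXR signalling and sterol efflux, 5 were higher, APOE among them, and 3 lower, SMPDL3A and LPCAT3 among them. ABCA1, which loads cellular cholesterol onto apolipoproteins, had 1.01, 0.191 and 0.168 CPM in WT and 36.1, 47.7 and 37.1 in UA (log2 fold change 6.18, SE 0.47, edgeR adjusted p = 1.78e-06). Its WT counts were 22, 2 and 2 against 667, 496 and 251 in UA, so it passed the low-count filter only through the UA libraries. WT replicate 1 held 22 of the 26 WT counts, and without it the log2 fold change was 7.74 (edgeR adjusted p = 5.88e-12). With 1 library left out, the ABCA1 value ranged from 5.83 to 7.74. ABCG1, which hands cholesterol to high-density lipoprotein, lies on chromosome 3 from 4397927 to 4491646. It had 1.05, 4.21 and 2.19 CPM in WT and 33.9, 35.5 and 36.6 in UA, a 15.0-fold difference (log2 fold change 3.90, SE 0.41, edgeR adjusted p = 1.43e-05). Without WT replicate 2, the highest WT library for ABCG1, the log2 fold change was 4.50, and without WT replicate 1 it was 3.48.

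The receptors themselves moved otherwise. NR1H2, which encodes the widely expressed LXR beta, fell 2.15-fold, from 180.4, 145 and 189 CPM in WT to 81.1, 80.4 and 77.8 in UA (log2 fold change -1.10, SE 0.16, edgeR adjusted p = 0.000109). It lies on chromosome 19 from 45738772 to 45747572. NR1H3, which encodes LXR alpha, the form rich in macrophages, was low in all libraries and overlapped, at 9.23, 5.07 and 5.30 CPM and 7.48, 7.79 and 4.87 (log2 fold change 0.04, SE 0.35, edgeR adjusted p = 0.93). Granule genes, CD68 and ITGAM were higher and CD14, SPI1 and FCGR1A lower in the same UA libraries, as given above. The part of these markers in the ABCA1 and ABCG1 values was not tested.

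WT replicate 1 stood apart from the other WT libraries for many of these genes, in both directions. Among the 17 sterol enzymes it was the highest WT library for 10 and the lowest for 6, where over all genes it was the highest for 39.7% and the lowest for 38.1%. It was the lowest for 4 of 6 fatty acid genes and for 4 of 4 SREBP regulators. On the log2 scale against the mean of WT replicates 2 and 3 it stood at -1.80 for HMGCS1, -1.15 for LSS, -1.07 for SCD, -1.16 for STARD4 and -1.21 for SREBF1. It stood at 0.73 for PMVK, 0.70 for EBP and 0.66 for FDPS, so enzymes of 1 route differed in sign within the WT group. The UA mean was still under WT replicate 1 for all 17 sterol enzymes, by log2 values from -0.75 for HMGCS1 to -4.25 for FDPS. WT replicate 1 also had the highest mitochondrial share, 1.35%, and ribosomal protein share, 2.58%, whose part in this pattern was not tested.

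**Figure D3:**
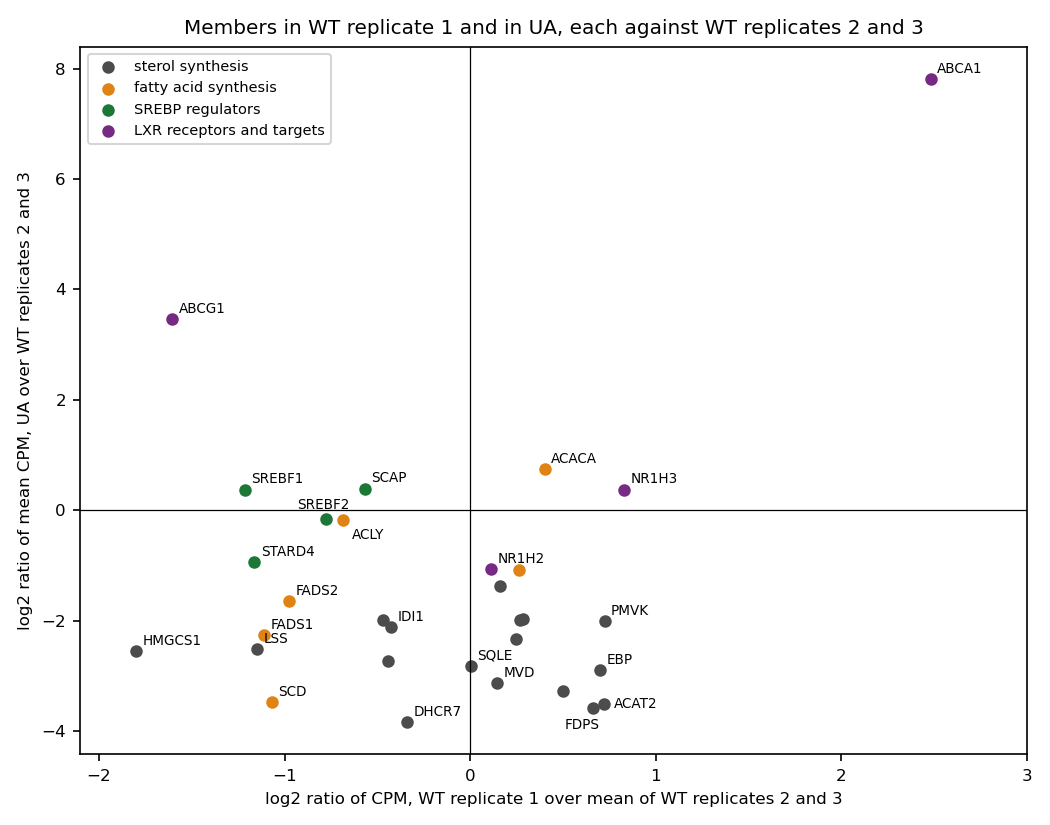
Each measured gene by its log2 ratio of WT replicate 1 to the mean of WT replicates 2 and 3 (horizontal) and of the UA mean to that same mean (vertical), coloured by role. The shared denominator links the axes, so the plot gives positions only. HMGCS1 lies farthest left at -1.80 and ABCA1 farthest right at 2.48.

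Other genes of the same routes were taken from 4 lists, whose counts stand beside the 31.4% lower and 34.6% higher of all genes. Of 11 tested genes of sterol and isoprenoid synthesis, 6 were lower and 2 higher (4 and 2 with the UA libraries summed), with a median log2 fold change of -0.84. ERG28, an anchor of the demethylating enzymes, and COQ2, of ubiquinone synthesis, had log2 fold changes of -2.14 and -1.49 (edgeR adjusted p = 1.13e-05 and 4.5e-05). The genes that rose were LBR and FAXDC2. LBR, a nuclear envelope protein with the same reductase activity as TM7SF2, had 139, 305 and 264 CPM in WT and 658, 686 and 635 in UA (log2 fold change 1.49, SE 0.25, edgeR adjusted p = 0.000316). FAXDC2, of the fatty acid hydroxylase family, had 3.24, 4.02 and 4.55 CPM and 40.2, 36.7 and 44.2 (log2 fold change 3.37, SE 0.24, edgeR adjusted p = 1.1e-06).

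Of 23 tested genes of fatty acid synthesis and activation, 10 were lower and 4 higher (8 and 3 with the UA libraries summed), beside 31.4% and 34.6% of all genes, with a median log2 fold change of -0.22. ME1, the malic enzyme that supplies NADPH, had 17.1, 28.1 and 24.0 CPM in WT and 1.73, 1.35 and 1.33 in UA (log2 fold change -3.93, SE 0.32, edgeR adjusted p = 2.43e-06). SLC25A1, the mitochondrial citrate exporter, fell from 188, 131 and 133 CPM to 55.5, 49.1 and 43.6 (log2 fold change -1.60, SE 0.19, edgeR adjusted p = 3.43e-05). MCAT, of mitochondrial fatty acid synthesis, and HACD3, a dehydratase of chain elongation, had log2 fold changes of -2.44 and -1.71 (edgeR adjusted p = 3.79e-06 and 1.63e-05). Higher in UA were ACSL6, an acyl-CoA synthetase, at 4.84, and HACD4, a dehydratase, at 1.45 (edgeR adjusted p = 7.92e-06 and 4.26e-05). ACACB, the mitochondrial form of the carboxylase, stood at 3.01 and ELOVL2, an elongase of polyunsaturated chains, at 3.76 (edgeR adjusted p = 0.00111 and 0.00677). ACACB stood at 4.15 without WT replicate 1, and its lowest value with 1 library left out was 2.61. ACACB, ACSL6 and ELOVL2 passed the filter only through UA, with 33, 5 and 3, 17, 1 and 10, and 11, 0 and 0 counts in WT. Without WT replicate 1, which held all WT counts of ELOVL2, its fitted value was 8.13, which depends on the prior count. The lowest ELOVL2 value with 1 library left out was 3.27. ELOVL2 lost its call with the UA libraries summed (edgeR adjusted p = 0.0869).

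Of 20 tested genes of SREBP processing, sterol sensing and uptake, 2 were lower and 6 higher (1 and 4 with the UA libraries summed), beside 31.4% and 34.6% of all genes, with a median log2 fold change of 0.24. INSIG2, which retains SCAP in the endoplasmic reticulum, had 126, 117 and 75.5 CPM in WT and 84.4, 82.5 and 85.2 in UA (log2 fold change -0.34, SE 0.20, edgeR adjusted p = 0.155). SOAT1, which esterifies cholesterol for storage, had 83.3, 109.7 and 116 CPM and 100.3, 93.0 and 114 (log2 fold change -0.0043, SE 0.17, edgeR adjusted p = 0.985). Both overlapped between groups and were not called, while leaving out WT replicate 3 gave INSIG2 a lower call (-0.54, edgeR adjusted p = 0.0151). GRAMD1B, which moves cholesterol from the cell surface to the endoplasmic reticulum, rose from 7.45, 8.51 and 6.82 CPM to 82.2, 66.0 and 71.6 (log2 fold change 3.27, SE 0.20, edgeR adjusted p = 4.6e-07). RNF145, a ubiquitin ligase of that membrane, rose from 4.39, 6.12 and 5.47 CPM to 35.1, 30.8 and 38.5 (log2 fold change 2.72, SE 0.24, edgeR adjusted p = 3.85e-06), and SYVN1 and MBTPS1, a ligase and a protease that cuts SREBPs, had log2 fold changes of 2.14 and 0.95 (edgeR adjusted p = 0.000222 and 0.00507). A further gene counted as higher, not named here, passed the filter only through UA. The genes called lower were LRP8, a receptor for apolipoprotein E, at -1.56, and UBXN8 at -0.99 (edgeR adjusted p = 1.95e-05 and 0.0123).

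Of 12 tested genes of LXR signalling and sterol efflux, 3 were lower and 5 higher (1 and 5 with the UA libraries summed), near the 31.4% and 34.6% of all genes, with a median log2 fold change of 0.23. APOE, an acceptor of exported cholesterol and an LXR target in macrophages, had 6.58, 1.34 and 1.52 CPM in WT and 49.2, 32.6 and 37.8 in UA (log2 fold change 3.56, SE 0.51, edgeR adjusted p = 0.000115). With 1 library left out, its log2 fold change ranged from 3.22 to 4.80, the latter without WT replicate 1. CYP27A1, which makes an oxysterol, had 1.32, 0.861 and 0.505 CPM in WT and 13.3, 9.33 and 12.7 in UA (log2 fold change 3.64, SE 0.41, edgeR adjusted p = 2.4e-05). CYP27A1 passed the filter only through UA, as did another gene counted as higher and not named here. RXRB, a partner of LXR, was 2.41-fold higher in UA (log2 fold change 1.27, SE 0.21, edgeR adjusted p = 0.000284). SMPDL3A, a phosphodiesterase, fell from 88.1, 107 and 85.6 CPM to 14.1, 19.1 and 13.7 (log2 fold change -2.58, SE 0.20, edgeR adjusted p = 2.31e-06), and LPCAT3, which remodels phospholipids, from 106, 167 and 179 to 80.3, 73.7 and 76.6 (log2 fold change -0.97, SE 0.20, edgeR adjusted p = 0.00146). LPCAT3 lost its call with the UA libraries summed (edgeR adjusted p = 0.0697), as did CYP7B1, which breaks down oxysterols (log2 fold change -1.96, edgeR adjusted p = 0.00293). UBXN8 lost its call in that fit (edgeR adjusted p = 0.0957) and without UA replicate 1 (-0.78, edgeR adjusted p = 0.0663).

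**Figure D4:**
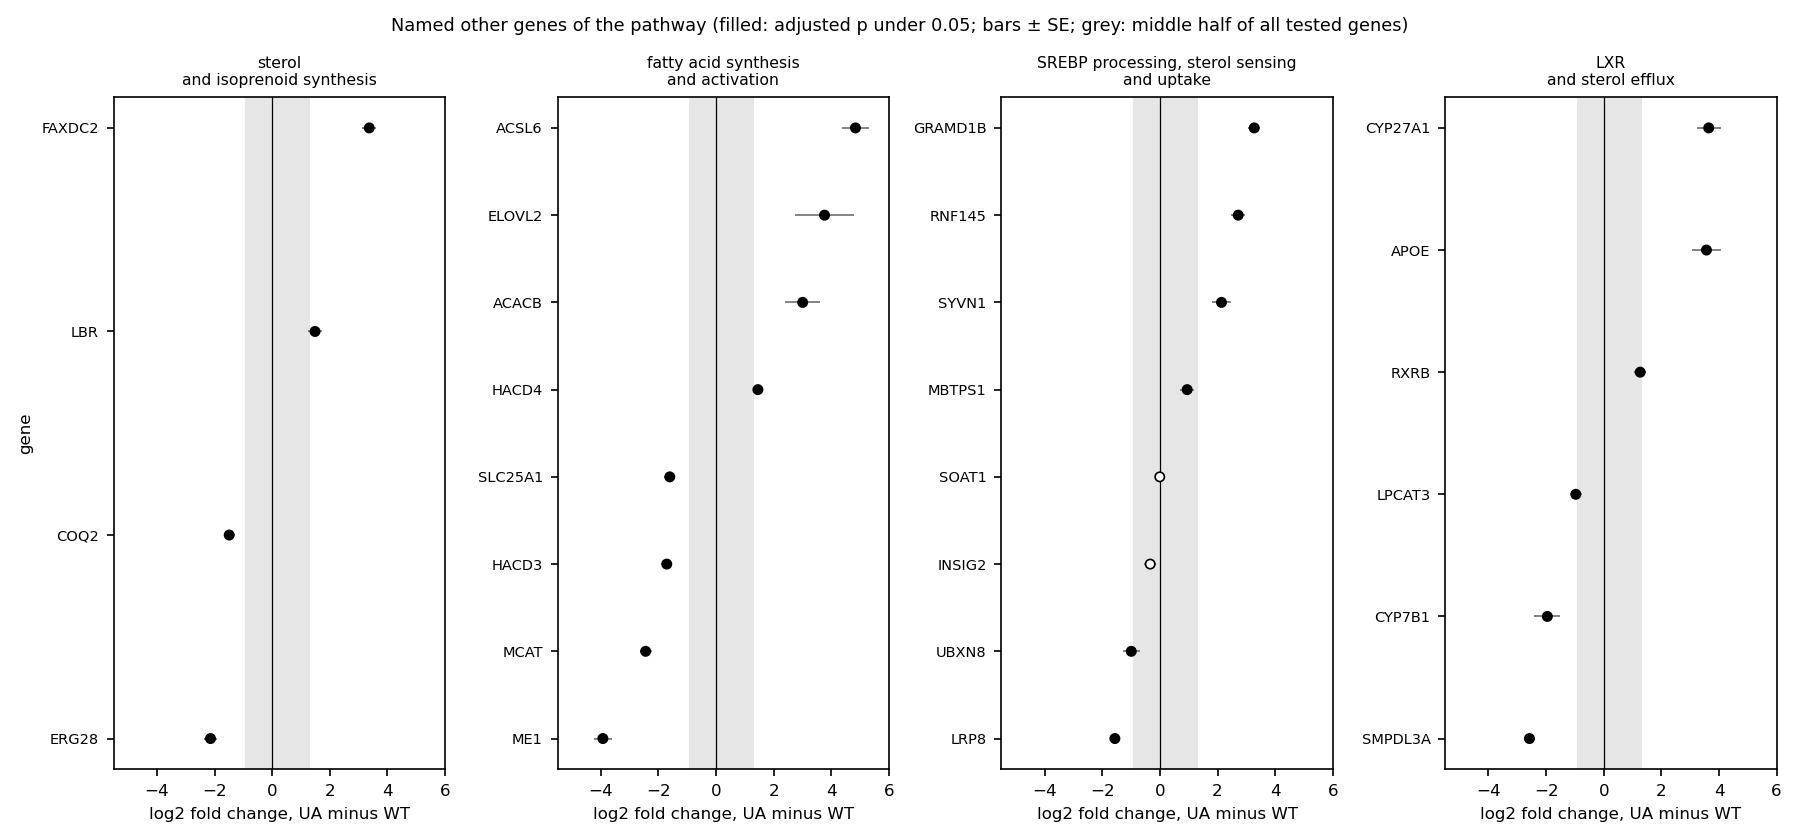
Log2 fold change of UA over WT, with bars of 1 SE, for the named genes of the 4 lists around the same routes, filled where called, over a grey band from -0.89 to 1.28 for the quartiles of all genes. ME1 and SMPDL3A lie at -3.93 and -2.58, while FAXDC2, GRAMD1B and APOE lie above 3 and SOAT1 near 0.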

How the data were processed

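RNA of 6 single colonies, 3 labelled WT and 3 labelled TET2 UA, was measured. Per the labels' protocols, cDNA was made with the SMART-Seq V4 kit and libraries with the Nextera XT kit, which mark neither strand nor molecule, so PCR copies count as reads. The submitters' processing notes name bcl2fastq and the build Mmul_8.0.1, and for the aligner and counter, "not given in the sources used here" is all that can be said. Raw counts per gene, in whole numbers that were not normalized, were deposited by the authors. A second deposited table holds start and end positions and symbols, used here for names and places only, because its comparison could not be tied to these 6 libraries.

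Symbols of the 31 matched members came from the row name for 3, from the deposited table for 15 and from a reference list of gene IDs and symbols for 13. The members and all gene lists were chosen with earlier results of these data known. Members of the 4 other pathway lists were named if among the 5 called genes of smallest p of a list or called against its majority. INSIG2, SOAT1 and APOE were named whatever their values. Some genes that the rule names are counted in their lists and are otherwise not reported here. No promoter, protein or other sequence was analysed here.

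The main test was the quasi-likelihood F-test of edgeR 4.0.16 (R 4.3.3, robust=TRUE), with all 6 libraries in the fit and no covariate beside the label. The filterByExpr filter (minimum count 10, minimum total 15) left 13768 genes, and TMM factors were 0.860 to 1.07. The Benjamini-Hochberg adjustment ran over every tested gene, and a call needs an adjusted p under 0.05. The precision of a value is limited by depth: 3 counts are 0.118 CPM in the deepest and 0.474 CPM in the shallowest library, before TMM scaling. Counts for UA against WT were also simulated over 13768 genes, with 100 given a log2 change of 1 and 100 given one of 2. The fit found 52% and 98% of them, and 8 of its 158 calls were false. In the data 66% of genes were called, a far larger share than was changed in the simulation, so these rates may not carry over. Alternatives were other scaling factors, no filter or at least 5 CPM in 3 libraries, DESeq2 1.42.0, limma 3.58.1 voom, a replicate block, an adjusted p under 0.1, thinning to the smallest total, the UA libraries summed and leaving out each library. The last of them, leaving out WT replicate 1 with the UA libraries summed, was added after the data were seen.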

Additional observations from a re-analysis of the deposited data

How the results depend on the processing

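For 57 log2 fold changes of single genes, 970 of 1024 values under an alternative kept their direction and side of the threshold. For 24 counts and medians, 37 of 432 values moved beyond the tolerance, which is 1.5-fold for a count. In all 18 alternatives the 17 sterol enzymes were called lower and none higher, 4 fatty acid genes were called lower, and among the LXR genes 1 was called lower and 2 higher. Scaling by library size alone and by upper quartile moved the median of all genes from 0.12 to 0.28 and 0.21, and no filter moved it to 0.91.

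The summed UA libraries moved the most counts. All genes called fell from 4770 to 3014 higher and from 4321 to 2410 lower, with SREBP regulators 0 higher, fatty acid genes 0 higher, all members 2 higher, and the other SREBP and other LXR lists 1 lower each. SREBP regulators called higher were 2 with an adjusted p under 0.1, at least 5 CPM in 3 libraries, no filter, upper-quartile factors and the replicate block, and 0 without WT replicate 1 and with UA summed. SREBP regulators called lower were 1 with DESeq2, an adjusted p under 0.1, thinning, voom, no filter, the replicate block, and without WT replicate 1 and with UA summed. Thinning gave 0 fatty acid genes higher. The other SREBP list had 4 lower with voom and 1 without WT replicate 1 and with UA summed. With 1 library left out, SREBP regulators called higher ranged from 0 to 2 and lower from 0 to 1, fatty acid genes higher from 0 to 1, all members higher from 2 to 4, the other SREBP list lower from 1 to 3, and the LXR median from 1.88 to 2.19. The causes were not tested.

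Signs turned for 4 named genes that were not called under the main setting or the alternative. ACLY was -0.000905 with no filter, -0.13 with voom and -0.17 without WT replicate 1 and with UA summed, and SREBF2 was -0.11 with voom and -0.16 without WT replicate 1 and with UA summed. NR1H3 was -0.055 with thinning. SOAT1 was 0.089 with upper-quartile factors, 0.15 with library size alone, 0.048 with at least 5 CPM in 3 libraries and 0.0057 with the replicate block. With 1 library left out, ACLY ranged from -0.17 to 0.13, SREBF2 from -0.16 to 0.23, NR1H3 from -0.12 to 0.39 and SOAT1 from -0.13 to 0.081.

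Correlations of same-numbered deviations were near 0, at 0.013, 0.022 and 0.013, and those of different numbers ran from -0.013 to -0.00034. Each library correlated best with its own number. Values this small cannot tell whether replicate numbers pair the samples. The replicate block called SREBF1 higher (0.77, edgeR adjusted p = 0.0172) and STARD4 lower (-0.56, edgeR adjusted p = 0.0482). Low counts limit ACAT2, with 2 counts in UA replicate 3, and ABCA1, with 2 counts in WT replicates 2 and 3. Genes with a count numbered 15234 to 16817 in WT libraries and 18721 to 21026 in UA ones, though UA replicate 3 was the shallowest library. The part of this in values near 0 in WT was not tested.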
